A study of Mus musculus with 12 samples.

Results

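The genes described here are those of the AP-1 and EGR immediate-early transcription factors together with Ier3, in mouse marrow progenitors that carried the RUNX1-ETO fusion or the empty vector. All probes were taken whose annotated gene symbol was Fos, Fosb, Fosl2, Jun, Junb, Jund, Egr1, Egr2, Egr3 or Ier3. Of these 10 genes, 9 had a probe, 1 each, among the 25697 probes and 16593 named genes of the array. No probe was annotated as Fosl2, and it was not analysed here. All 9 probes passed the filter on dim probes. Fosb was above background on 7 of 12 arrays, all 6 arrays with the fusion and 1 control array, so it passed through the groups in which it was high. The other 8 were above background on all 12 arrays.

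The 4 groups held 3 arrays each. RE and RE+GM cells carried MigR1-HA-RUNX1-ETO, without and with GM-CSF at 10 ng/mL for the last 24 h, and Mig and Mig+GM cells carried the MigR1 vector alone, likewise without and with GM-CSF. Titles call the fusion AE where descriptions call it RE. RUNX1-ETO, a leukaemia fusion, links the part of RUNX1 that binds DNA to the corepressor ETO. GM-CSF stimulates myeloid progenitors and signals through JAK2 and STAT5 and through RAS and ERK. In all groups the cells were lineage-negative marrow from C57BL/6J mice, transduced over 24 h and sorted for GFP, c-Kit and the lack of lineage markers, which in RE and RE+GM was after 48 h of fusion expression. The medium held 15% serum, IL-3 at 10 ng/mL, SCF at 50 ng/mL and FLT3 ligand at 50 ng/mL in every group, so the control cells were also under cytokines. Expression from the retroviral vector is not that of the endogenous locus, and age, sex and pooling of the mice are not stated in the labels. The labels do not say whether the replicates were separate animals or cultures, and each p-value therefore reflects the variation among these arrays alone, which may be technical.

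AP-1 is a dimer of basic leucine zipper proteins, most often a FOS protein with a JUN protein, that binds TGANTCA or TGACGTCA in DNA. FOS proteins cannot form stable dimers among themselves, while JUN proteins can, and JUNB and JUND are weaker activators than JUN in many settings. EGR proteins are zinc finger factors that bind GC-rich sites and are held in check by the corepressors NAB1 and NAB2. Most of these genes are switched on within minutes of a growth factor, serum or stress signal, through SRF and ternary complex factors activated by ERK and through CREB-family factors at cyclic AMP response elements, and their messages are short-lived. In myeloid progenitors EGR1, EGR2 and AP-1 are known for roles in monocyte and macrophage differentiation.

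The bases just before the gene starts were searched for some of those elements. RefSeq promoter windows (GRCm38.p6) were used for 8 of the genes, in 12 windows, and Egr1 and Egr3 were not searched. Only the 250 bases before the start were searched, here and in all other windows, so elements further upstream would be missed. Those 250 bases are printed 5′ to 3′ for some of the genes that were higher in RE or RE+GM cells. Windows of Jund and Ier3, also called higher, were searched but are not printed. Printed are Fos (chr12:85473640-85473889, plus strand), Fosb (chr7:19310046-19310295, minus strand), Jun (chr4:95052223-95052472, minus strand), Junb (chr8:84978749-84978998, minus strand) and Egr2 (chr10:67537619-67537868, plus strand, 1 of its 5 starts). The Egr2 window was chosen for holding the most marked elements. Capitals mark TGACG on either strand, which is one arm of a cyclic AMP response element, TGANNTCA in Jun, and the CArG box that binds SRF in Egr2.
Fos: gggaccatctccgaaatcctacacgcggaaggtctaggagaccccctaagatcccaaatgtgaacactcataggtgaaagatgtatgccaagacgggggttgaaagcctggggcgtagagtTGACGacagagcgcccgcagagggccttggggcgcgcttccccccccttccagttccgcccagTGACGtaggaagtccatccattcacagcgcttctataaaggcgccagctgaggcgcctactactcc
Fosb: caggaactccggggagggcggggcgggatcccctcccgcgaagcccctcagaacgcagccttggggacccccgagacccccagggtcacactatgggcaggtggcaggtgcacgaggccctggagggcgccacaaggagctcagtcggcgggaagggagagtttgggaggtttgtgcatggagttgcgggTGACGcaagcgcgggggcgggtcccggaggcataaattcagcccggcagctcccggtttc
Junb: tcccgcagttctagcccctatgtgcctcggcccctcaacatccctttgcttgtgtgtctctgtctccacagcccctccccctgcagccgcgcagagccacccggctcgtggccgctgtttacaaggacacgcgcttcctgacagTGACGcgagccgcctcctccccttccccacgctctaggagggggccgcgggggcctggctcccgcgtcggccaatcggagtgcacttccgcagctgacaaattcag
Jun: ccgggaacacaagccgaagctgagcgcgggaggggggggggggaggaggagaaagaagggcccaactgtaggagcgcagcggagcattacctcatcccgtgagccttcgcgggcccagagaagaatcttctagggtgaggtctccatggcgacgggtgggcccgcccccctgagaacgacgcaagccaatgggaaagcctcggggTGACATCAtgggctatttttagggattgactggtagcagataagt
Egr2: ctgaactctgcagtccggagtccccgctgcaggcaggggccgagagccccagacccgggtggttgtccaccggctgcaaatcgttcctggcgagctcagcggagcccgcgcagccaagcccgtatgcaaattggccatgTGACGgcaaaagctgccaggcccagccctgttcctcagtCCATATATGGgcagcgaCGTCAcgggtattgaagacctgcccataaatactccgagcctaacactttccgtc
TGACG lay in windows of Fos, Fosb, Junb and Egr2, and 17.8% of all 32851 promoter windows hold it. In Fos it began 129 and 66 bases before the start, in Fosb 60, in Junb 106, and in the printed Egr2 window 111 and 55. Not all Egr2 windows held TGACG, and a gene with several windows has more chances of a match than a single window. Jun and Jund held TGANNTCA, the form bound by JUN and ATF2 dimers, 45 and 61 bases before the start, against 11.9% of all windows. The CArG box in the printed Egr2 window began 72 bases before the start, and 1.47% of all windows hold one. Fosb and Fosl2 held GCGNGGGCG, a site that EGR proteins bind (4.7% of windows), and Fos held TATAAA 33 bases before the start (12.4%). In the 250 bases searched, none of the 12 windows held TGACGTCA (1.55% of all windows), TGANTCA (6.75%), the RUNX core TGTGGT (14.0%) or the STAT form TTCNNNGAA (7.02%). All forms were searched on both strands, and Ier3 held none of them. TGACG is part of TGACGTCA, and TGACGTCA is 1 form of TGANNTCA. A match is a description of the letters only.

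Levels are given as log2 intensity after background correction, with 50 added, and quantile normalization, and each belongs to its own probe and is not set against that of another gene. The added 50 makes differences of dim probes smaller than the signals alone would. Mean signals of the deposited arrays were 318 to 430 in RE, 431 to 597 in Mig, 418 to 459 in RE+GM and 410 to 440 in Mig+GM. Between 48.9% and 60.9% of probes were above background. With 3 arrays a group, their number limits how precise each value is. The Runx1t1 probe ILMN_2662450, for the ETO part of the fusion, was above background on all 6 RE and RE+GM arrays and on 0 of 6 Mig and Mig+GM arrays. A second Runx1t1 probe, ILMN_1230714, was above background on 0 of the 6 RE and RE+GM arrays and on 3 of the 6 Mig and Mig+GM arrays, and whether either lies in the part that the fusion keeps was not tested. Of 5 stem and progenitor markers 1, Cd34, was called higher in RE against Mig (1.96, log2) and in RE+GM against Mig+GM (1.45), and the other 4 were not called. Those 5 summed to 3110 to 3556 in RE against 2736 to 4640 in Mig cells, and no probe was named Kit, which was not analysed here. In RE cells the 5 monocyte and macrophage markers on the array summed to an intensity of 8017 to 11550, against 1430 to 5406 in Mig cells, and in RE+GM cells to 9154 to 13810, against 1796 to 4148 in Mig+GM cells. Adgre1, Cd14 and Fcgr3 of these were called higher in RE cells and Adgre1 and Fcgr3 in RE+GM cells, while Itgam, a defining marker, was above background on no RE and no Mig+GM array. The 9 neutrophil markers summed to 14760 to 33810 in RE against 28820 to 74160 in Mig cells, and to 11720 to 23370 in RE+GM against 31880 to 93360 in Mig+GM cells, with 1 and 3 called lower and 0 higher (3 and 6 lower with the replicate number as a block). Of 4 erythroid markers 3 were lower in each pair, of 6 mast cell and basophil markers 1 was higher and 2 lower in each, of 5 megakaryocyte markers 0 and 1 were higher and 3 and 2 lower, of 4 endothelial and stromal markers 2 were higher in each, and of 2 lymphoid markers 0 were called. Of the endothelial markers Cdh5 was above background on RE and RE+GM arrays only, so it passed the filter through groups in which it was high. Whether cells of any of these types had a part in the results was not tested. In bulk samples fewer cells of a type and less RNA per cell cannot be told apart.

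RUNX1-ETO cells without GM-CSF had higher levels of the Fos, Fosb, Jun and Junb messages, with less stable calls for Jund, Egr1 and Ier3. Limma (BH-adjusted p under 0.05 over 12024 units, fitted on all 12 arrays) called 7 of the 9 genes higher and 0 lower in RE than in Mig cells, at a background of 17.7% of units called higher, 20.3% called lower and 38% called in either direction. Without Fosb the count is 6 of 8. The genes were chosen with earlier results of these data known, which may raise such counts. The median change of the 9 was 1.5 on the log2 scale, against -0.04 for all units. In 7 of 9 genes the groups did not overlap, 6 higher and 1, Egr3, lower, where 46% of all units had no overlap and 21.1% none with RE higher. With GM-CSF present 7 of the 9 were again called higher and 0 lower, now comparing RE+GM with Mig+GM, at backgrounds of 18.9% called higher, 23.5% lower and 42.4% in either direction. There the median change was 1.59, against -0.05 for all units, and 8 of 9 genes had no overlap, 7 of them higher (52.6% of all units in either direction, 22.9% higher). The count of 7 in RE against Mig dropped to 4 without Mig replicate 2 or without RE replicate 3, and also without all arrays numbered 1 or 2. It was also 4 with arrays scaled to 1 median. In each case the calls lost were those of Jund, Egr1 and Ier3.

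**Figure D1:**
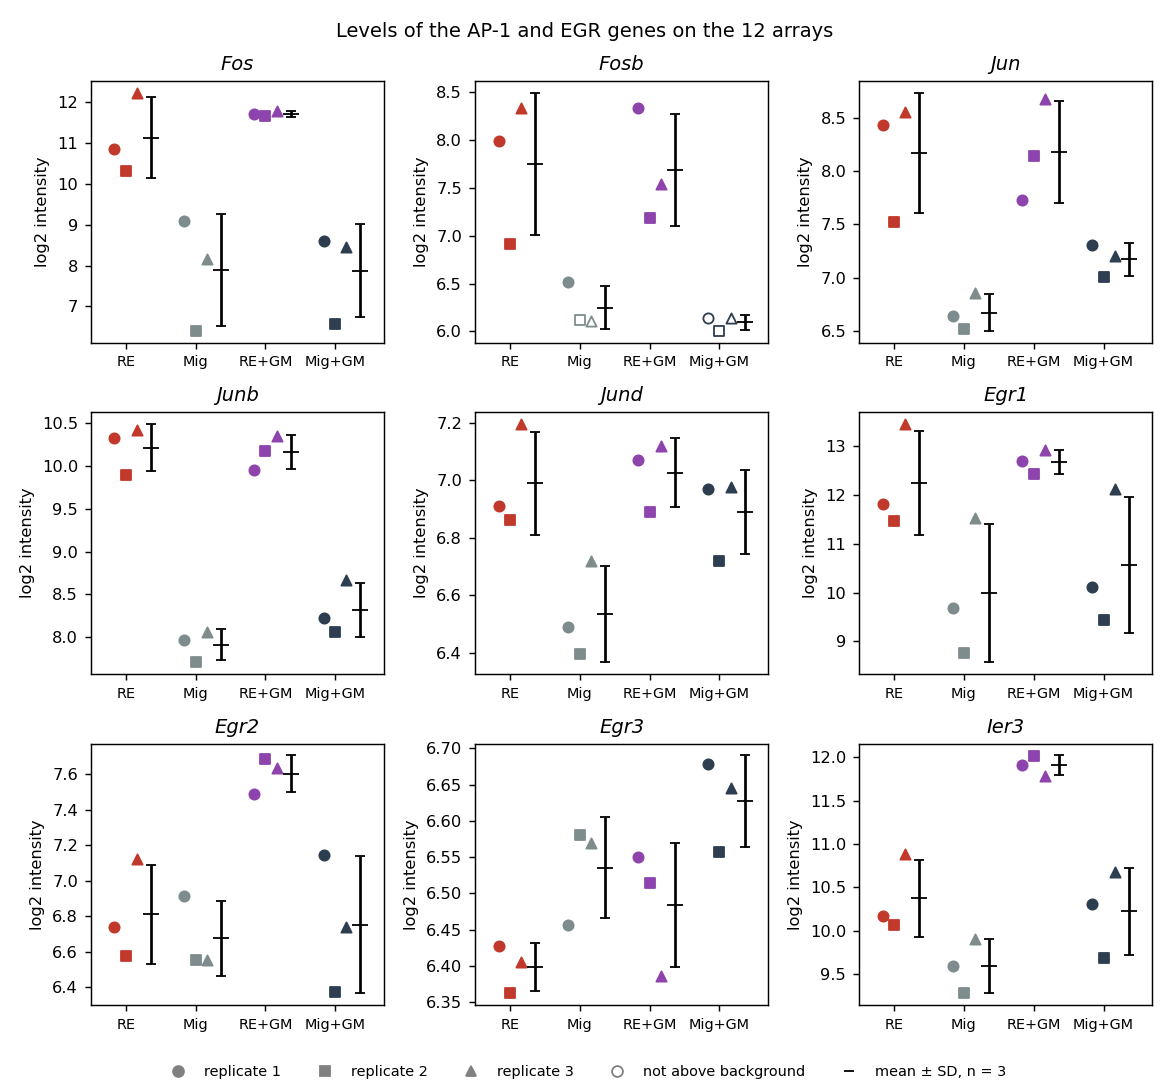
Log2 intensity of the 9 genes on each array (points, shaped by replicate number; open where not above background) with the mean and SD of each group (n = 3). RE and RE+GM arrays lie above all control arrays for Fos, Fosb, Jun and Junb, while Egr3 spans a narrow range and Egr1 has a wide spread in the control groups.

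Fos, the founding member of the family, showed the largest change of the 9. Its log2 intensity was 10.86, 10.32 and 12.23 on RE replicates 1 to 3, against 9.10, 6.40 and 8.16 on Mig replicates 1 to 3. With GM-CSF it was 11.70, 11.65 and 11.78 on RE+GM arrays, against 8.61, 6.56 and 8.45 on Mig+GM arrays. Every array with the fusion thus lay above every control array, and the 2 lowest values came from the control arrays numbered 2. The change was 3.25 (SE 0.70, limma adjusted p = 0.00301), or 9.50-fold, without GM-CSF, and 3.84 (SE 0.70, limma adjusted p = 0.000777), or 14.3-fold, with it. Without Mig replicate 2 the first was 2.51 and without Mig replicate 1 3.85, and without Mig+GM replicate 2 the second was 3.18, all called. Spread differed between groups, with an SD of 0.99 in RE, 1.37 in Mig, 0.07 in RE+GM and 1.14 in Mig+GM (n = 3 each). In the order of levels RE+GM came first (11.71), then RE (11.14), Mig (7.89) and Mig+GM (7.88), and the arrays of RE+GM and RE overlapped, as did those of Mig and Mig+GM. On Mig replicate 2 the deposited signal was 86.3, just over that array's background limit of 80.1.

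Fosb encodes a FOS protein with a full-length form and a truncated form. It read 8.0, 6.92 and 8.34 on RE arrays, against 6.52, 6.12 and 6.11 on Mig arrays, of which only replicate 1 was above background. On RE+GM arrays it read 8.34, 7.19 and 7.54, against 6.14, 6.01 and 6.15 on Mig+GM arrays, none of them above background. Groups did not overlap in either pair, and the replicate 2 array was the lowest within RE and within RE+GM. Fosb was 1.5 higher in RE than in Mig cells (SE 0.34, limma adjusted p = 0.00409), a call lost without all arrays numbered 3 (1.14, adjusted p = 0.0877). In RE+GM cells it was at least 2.69-fold higher than in Mig+GM cells, a bound set against each array's lowest signal above background or the probe's own if higher (limma adjusted p = 0.00233). The mean levels were 7.75 in RE, 7.69 in RE+GM, 6.25 in Mig and 6.10 in Mig+GM, with overlap between the first pair and between the last.

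Of the JUN genes, Junb moved furthest beyond its spread. JUNB dimerizes with FOS proteins and restrains myeloid proliferation in mice. Its levels were 10.33, 9.90 and 10.42 on RE arrays, against 7.97, 7.71 and 8.06 on Mig arrays. With GM-CSF they were 9.96, 10.18 and 10.36 on RE+GM arrays, against 8.23, 8.06 and 8.66 on Mig+GM arrays. The gap between the groups was larger than the range within any of them. The change was 2.30 (SE 0.18, limma adjusted p = 2.59e-06), or 4.93-fold, without GM-CSF and 1.85 (SE 0.18, limma adjusted p = 8.28e-06), or 3.59-fold, with it. Arrays of the same replicate number differed by 2.35, 2.19 and 2.36 between RE and Mig (numbers 1, 2 and 3). In the order of mean levels RE and RE+GM (10.16) overlapped at the top, above Mig+GM (8.32) and Mig (7.91), whose arrays just failed to overlap.

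Jun is the strongest activator of the JUN genes. It read 8.43, 7.52 and 8.55 on RE arrays, against 6.64, 6.52 and 6.85 on Mig arrays, a change of 1.5 (SE 0.27, limma adjusted p = 0.000984). On RE+GM arrays it read 7.72, 8.14 and 8.68, against 7.31, 7.0 and 7.20 on Mig+GM arrays, a change of 1.01 (SE 0.27, limma adjusted p = 0.0097). No fusion array lay among the control arrays in either pair, although RE+GM replicate 1 came within 0.41 of Mig+GM replicate 1. Without all arrays numbered 3 the second call was lost (0.77, adjusted p = 0.0698). RE+GM (8.18) and RE (8.17) means were nearly level, above Mig+GM (7.17) and Mig (6.67), and the arrays of the last pair did not overlap.

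Jund, whose protein is present in most resting cells and is less inducible, showed the smallest call. It read 6.91, 6.86 and 7.19 on RE arrays, against 6.49, 6.39 and 6.72 on Mig arrays. The groups did not overlap, and the change was 0.45 (SE 0.12, limma adjusted p = 0.0122), with same-number differences of 0.42, 0.47 and 0.47. That call was lost under median scaling (adjusted p = 0.0615), without Mig replicate 2 (0.38, adjusted p = 0.055), without RE replicate 3 (0.35, adjusted p = 0.05) and without all arrays numbered 1 or 2 (adjusted p = 0.0718 and 0.0578). With GM-CSF the arrays overlapped, at 7.07, 6.89 and 7.12 in RE+GM and 6.97, 6.72 and 6.98 in Mig+GM, and the difference of 0.14 was not called (95% interval -0.13 to 0.41, limma adjusted p = 0.428).

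**Figure D2:**
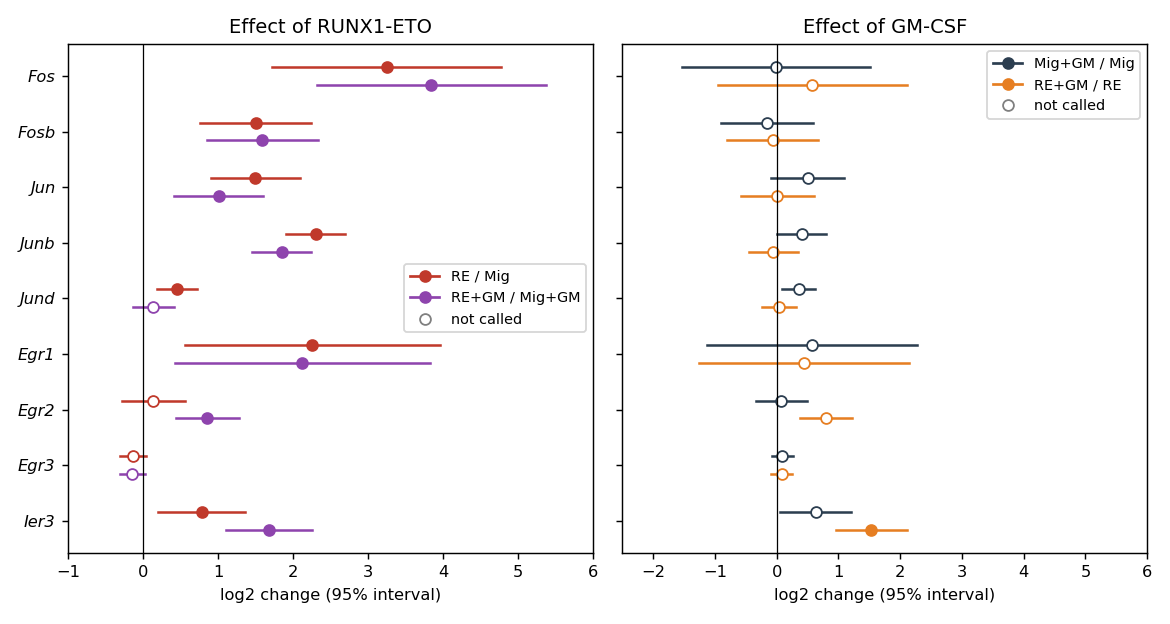
Log2 change of each gene with its 95% interval in the comparisons of RUNX1-ETO (left) and of GM-CSF (right); filled points passed limma's adjusted p of 0.05. The RUNX1-ETO changes of Fos, Fosb, Jun and Junb lie wholly above 0 in both pairs, and of the GM-CSF changes that of Ier3 in RE cells alone was called.

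Egr1, the most widely studied EGR gene and a target of ERK signalling, had high and variable levels. They were 11.82, 11.46 and 13.46 on RE arrays, against 9.68, 8.75 and 11.53 on Mig arrays. RE+GM arrays gave 12.70, 12.43 and 12.92, against 10.11, 9.44 and 12.13 on Mig+GM arrays. Replicate 3 was the highest in every group, and Mig replicate 3 lay just above RE replicate 2, so RE and Mig overlapped while RE+GM and Mig+GM did not. The change was 2.26 (SE 0.78, limma adjusted p = 0.0379), or 4.78-fold, without GM-CSF and 2.12 (SE 0.78, limma adjusted p = 0.0448) with it. Same-number differences were 2.14, 2.71 and 1.92 between RE and Mig, and 2.59, 2.98 and 0.79 between RE+GM and Mig+GM. With the replicate number as a block the SE was 0.35 and the adjusted p 0.000437 without GM-CSF and 0.000521 with it. Both calls were near the threshold without the block. Median scaling ended both (1.73 and 2.14, adjusted p = 0.13 and 0.0671), as did testing with no filter on dim probes (adjusted p = 0.0538 and 0.0637) and leaving out all arrays numbered 1 (2.32 and 1.89) or 2 (2.03 and 1.69), and the authors' normalized table ended the second (2.20, adjusted p = 0.0594). Median scaling together with the block kept both (adjusted p = 0.00722 and 0.00246). Without Mig replicate 3 the first change was 3.03, and without Mig+GM replicate 3 the second was 2.91. The first was also lost without Mig replicate 1, Mig replicate 2, RE replicate 1, RE replicate 3, RE+GM replicate 1 or RE+GM replicate 2 (1.64 to 2.47, adjusted p up to 0.154), and the second without Mig replicate 1, RE replicate 1, RE replicate 2 or any array of RE+GM, and without Mig+GM replicate 1 or 2 (1.56 to 2.25, adjusted p up to 0.173).

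Egr2, which in macrophage precursors acts with EGR1 against the neutrophil programme, differed between the pairs of groups in its call. Without GM-CSF it read 6.74, 6.57 and 7.12 on RE arrays and 6.92, 6.56 and 6.55 on Mig arrays, which overlapped (0.14, 95% interval -0.28 to 0.56, limma adjusted p = 0.637). RE+GM arrays read 7.49, 7.69 and 7.64, all above the 7.14, 6.37 and 6.74 of the Mig+GM arrays. There the change was 0.85 (SE 0.19, limma adjusted p = 0.00331), lost without all arrays numbered 2 (0.62, adjusted p = 0.0631). The difference between the RUNX1-ETO changes with and without GM-CSF was itself 0.72 (SE 0.27) and was not called (limma adjusted p = 0.42). The Egr2 probe was dim, which limits its changes. Its deposited signal was 84.9 on RE replicate 1 (background limit 70.0) and 81.2 on Mig+GM replicate 2 (limit 77.4).

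Egr3 was dim and nearly flat. It ran from 6.36 to 6.43 in RE, 6.46 to 6.58 in Mig, 6.39 to 6.55 in RE+GM and 6.56 to 6.68 in Mig+GM cells. RE lay below Mig and RE+GM below Mig+GM without overlap. The differences of -0.14 in each pair were not called (95% intervals -0.31 to 0.03 in both, limma adjusted p = 0.201 and 0.171).

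Ier3 is not a transcription factor but an immediate-early gene whose small product modulates ERK signalling and cell survival. It read 10.17, 10.07 and 10.89 on RE arrays, against 9.60, 9.28 and 9.91 on Mig arrays. The RE+GM arrays read 11.91, 12.02 and 11.79, against 10.31, 9.69 and 10.68 on Mig+GM arrays. In both pairs the fusion arrays lay above the control arrays, by a narrow margin without GM-CSF. The change was 0.78 (SE 0.26, limma adjusted p = 0.0353) without GM-CSF and 1.68 (SE 0.26, limma adjusted p = 0.000267), or 3.21-fold, with it. Median scaling lowered the first to 0.33 (adjusted p = 0.494), and it was lost without Mig replicate 1 (0.78, adjusted p = 0.0738), Mig replicate 2 (0.62, adjusted p = 0.134) or RE replicate 3 (0.52, adjusted p = 0.135), and without all arrays numbered 1 or 2 (0.88 and 0.77, adjusted p = 0.116 and 0.0682).

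Few of these genes, and few of all units, were called with GM-CSF. In vector control cells limma called 0 of the 9 between Mig+GM and Mig, higher or lower, at a background of 0.00832% of units called (1 unit, higher; 0% lower). At an unadjusted p under 0.05 the count was 3 of 9 (Junb 0.40, Jund 0.35 and Ier3 0.63) and 642 of 12024 units, and with the replicate block it was again 0 of 9 after adjustment. Jun and Junb had no overlap, both higher in Mig+GM, where 4.61% of all units had none with Mig+GM higher and 9.76% in either direction. Jun, Junb, Jund, Egr1 and Ier3 were higher in Mig+GM in all 3 same-number differences, by 0.35 to 0.67 for Jun, 0.25 to 0.61 for Junb, 0.26 to 0.48 for Jund, 0.43 to 0.69 for Egr1 and 0.41 to 0.77 for Ier3. The median change of the 9 was 0.35, against -0.01 for all units. Fos differed by -0.01 with a 95% interval of -1.54 to 1.51, and its fusion changes of 3.25 and 3.84 lie above the upper bound.

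In RUNX1-ETO cells 1 of the 9 genes, Ier3, was called higher in RE+GM than in RE and 0 lower, at backgrounds of 1.9% of units higher, 0.366% lower and 2.26% in either direction. The Ier3 levels given above put all 3 RE+GM arrays over all 3 RE arrays. Its change was 1.53 (SE 0.26, limma adjusted p = 0.0109), or 2.89-fold, lost without RE replicate 2 (1.38, adjusted p = 0.0619), without RE+GM replicate 2 (1.48, adjusted p = 0.0589) and without all arrays numbered 1 or 2 (1.43 and 1.32, adjusted p = 0.208 and 0.235). Egr2 differed by 0.79 (SE 0.19, limma adjusted p = 0.0567), also without overlap, and with the replicate number as a block it was called (limma adjusted p = 0.0274), which made the count 2 of 9 where 3.38% of units were called higher. It was also called without Mig+GM replicate 1 (0.79, adjusted p = 0.0278), Mig+GM replicate 2 (0.79, adjusted p = 0.0349) or RE replicate 3 (0.95, adjusted p = 0.0184). Ier3 and Egr2 were the 2 of 9 without overlap (9.07% of all units with RE+GM higher, 22.8% in either direction). For the other 7 the difference lay between -0.06 (Fosb) and 0.58 (Fos), with a median over all 9 of 0.09. The RE arrays also enter the comparison with Mig, so the values of the 2 comparisons are not independent.

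**Figure D3:**
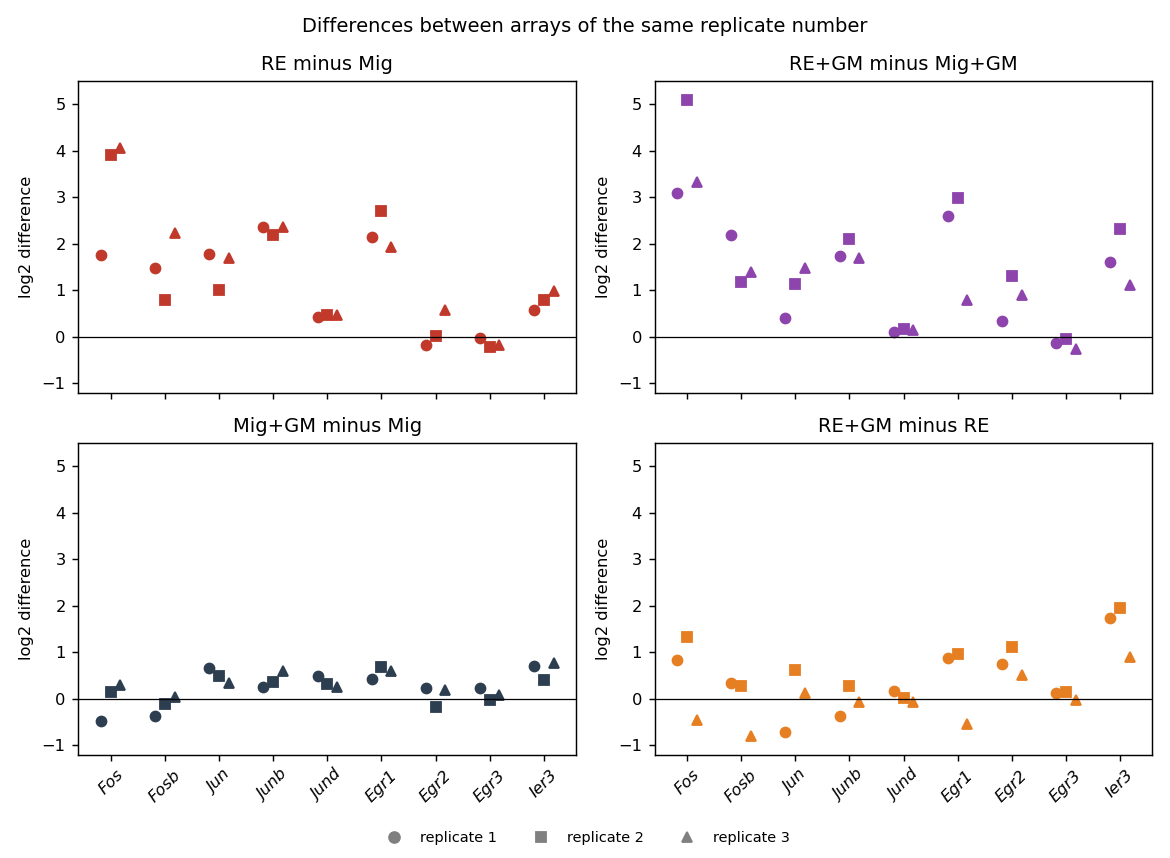
Log2 difference between arrays of the same replicate number, for each gene in the 4 comparisons (shapes mark the number). For Junb the RE minus Mig differences run from 2.19 to 2.36 and for Fos from 1.76 to 4.07, while the Mig+GM minus Mig differences of all 9 genes lie between -0.49 and 0.77.

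The interaction asked whether the change with the fusion differed with GM-CSF. It was called for 0 of the 9 genes by limma, with and without the replicate block, at a background of 0.266% of units (32 higher, 0% lower). At an unadjusted p under 0.05 the count was 2 of 9, Egr2 (0.72) and Ier3 (0.90, SE 0.37, limma adjusted p = 0.481), and 1119 of 12024 units. The JUN genes had negative values, -0.49 for Jun, -0.46 for Junb and -0.32 for Jund, none called (limma adjusted p = 0.741, 0.63 and 0.625). For Fos the 95% interval ran from -1.57 to 2.75 and for Egr1 from -2.53 to 2.27. With the block it ran from -0.85 to 2.03 for Fos and from -1.24 to 0.98 for Egr1. The block intervals lay below 0 for Junb (-0.83 to -0.08) and Jund (-0.57 to -0.06). They lay above 0 for Egr2 (0.17 to 1.26) and Ier3 (0.30 to 1.51), and none of these genes was called after adjustment.

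How the 9 genes deviated from their group means differed between the replicate numbers. On the arrays numbered 2, 0 of 9 were above their group mean in RE, 1 in Mig, 4 in RE+GM and 0 in Mig+GM. On those numbered 1 the counts were 4 in RE, 5 in Mig, 5 in RE+GM and 7 in Mig+GM. On those numbered 3 the counts were 9 in RE, 7 in Mig, 6 in RE+GM and 8 in Mig+GM. More of the genes were above the mean on number 3 than on number 2 in each group, with the smallest gap in RE+GM. For Egr1 the deviation of number 3 was 1.21 in RE, 1.54 in Mig, 0.24 in RE+GM and 1.57 in Mig+GM. Replicate numbers are the labels' own, and they do not say what the arrays of a number share.

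Across the 12 arrays, which share the 4 groups and the replicate numbers, the genes were set beside the units with the most similar profile, as a description without a test. Fos lay closest to Dusp1 (Pearson r = 0.984), an immediate-early phosphatase of MAP kinases, and to Mtcp1 (0.977). The Dusp1 level was 10.14 ± 0.56 in RE, 8.0 ± 0.77 in Mig, 10.86 ± 0.24 in RE+GM and 7.93 ± 0.48 in Mig+GM cells (SD, n = 3 each). Junb lay closest to Oas1g (0.993) and Fbxw17 (0.992), Jun to Stx1a (0.971) and Ift43 (0.964), and Fosb to Ubb-ps (0.979) and Vps4a (0.947). Egr2 lay closest to Edn1 (0.97), which encodes endothelin-1, and Plaur (0.954), the urokinase receptor gene, and Ier3 to Gde1 (0.976) and the polo-like kinase gene Plk3 (0.975). For Egr1 the nearest were Cln3 (0.936) and the unnamed probe ILMN_2704509 (0.932), for Jund Tnfaip1 (0.926) and Lrrc75a (0.922), and for Egr3 Dnajc3 (0.92) and Pptc7 (0.919). Among the 9 genes themselves the highest correlations were 0.939 for Jun with Junb and 0.927 for Fos with Junb, and all those of Egr3 were below 0.

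Other immediate-early genes were read from a list of 26, all on the array, of which 19 passed the filter. Of all units 17.7% were higher and 20.3% lower in RE against Mig, and 18.9% and 23.5% in RE+GM against Mig+GM. In RE cells 12 of the 19 were higher than in Mig cells, 0 lower and 7 not called, with a median of 0.76. Csrnp1, a nuclear protein gene induced by many signals, was 2.96 higher (SE 0.24, limma adjusted p = 3.88e-06), Zfp36l1, which promotes the decay of AU-rich messages, 2.25, the zinc finger gene Klf6 2.17 and Gadd45b 1.16. With GM-CSF 13 were higher, 0 lower and 6 not called in RE+GM against Mig+GM cells (median 0.82), among them Csrnp1 (3.32), Klf6 (2.28), Zfp36l1 (2.23) and Plk2 (1.63, above background on 2 of 3 Mig+GM arrays). Between Mig+GM and Mig 0 of 19 were called, and between RE+GM and RE 1, Plk3, was higher (0.78, SE 0.13, limma adjusted p = 0.00839), lost without all arrays numbered 1 (adjusted p = 0.171) or 2 (adjusted p = 0.321). With the block 2 were called.

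Other basic leucine zipper proteins can dimerize with FOS or JUN, and 10 of their genes were tested. In RE against Mig cells 4 were higher and 0 lower (17.7% and 20.3% of all units). They were Batf2 (1.30, SE 0.12, limma adjusted p = 8.05e-06; only 1 of 3 Mig arrays had it above background), Jdp2 (1.34), the stress factor gene Atf3 (1.32; on 2 of 3 Mig arrays) and Batf (0.78). Batf and JDP2 proteins are known as dimers that can restrain AP-1 activity. The Atf3 call was lost without all arrays numbered 3 (1.02, adjusted p = 0.159). That of Batf was lost under median scaling (0.40, adjusted p = 0.341), without Mig replicate 1 or 2 or RE replicate 2 or 3 (0.53 to 0.76, adjusted p up to 0.0797) and without all arrays numbered 2 or 3 (0.68 and 0.65, adjusted p = 0.194 and 0.0746). In RE+GM against Mig+GM cells the same 4 were higher (Jdp2 1.96, Atf3 1.98, Batf 1.52, and Batf2 at least 2.19-fold, since no Mig+GM array had it above background) and Batf3, named after its values were seen, was lower (-1.26, SE 0.28, limma adjusted p = 0.00324). In RE+GM against RE cells Jdp2 (1.24, SE 0.25, limma adjusted p = 0.0243) and Batf (1.08, SE 0.24, limma adjusted p = 0.0369) were higher and none was lower, and with the block 3 were higher. Of all units 18.9% were higher and 23.5% lower in RE+GM against Mig+GM, and 1.9% and 0.366% in RE+GM against RE. With the block 1 and 2 of the 10 were lower in RE against Mig and in RE+GM against Mig+GM. In Mig+GM against Mig cells 0 of 10 were called, and 1 with the block. Each of these last calls was lost on leaving out single arrays, Jdp2 without RE replicate 1 or 2 or RE+GM replicate 2 or 3 (1.05 to 1.30, adjusted p up to 0.115) and Batf without any array of RE+GM, RE replicates 1 or 2, Mig replicates 1 or 2 or Mig+GM replicate 3 (0.81 to 1.20, adjusted p up to 0.132). Fosl1, the FOS family member FRA1, was not called at 0.11 and -0.08 in the comparisons without and with GM-CSF (limma adjusted p = 0.399 and 0.51).

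Of the kinases, factors upstream and EGR corepressors 13 were tested. In RE against Mig cells 2 were higher and 1 lower, where 17.7% of all units were higher and 20.3% lower. The ERK kinase genes Map2k1 (0.37, limma adjusted p = 0.0277) and Map2k2 (0.39, limma adjusted p = 0.00613) were higher, and under median scaling they were at 0.02 and -0.05 and not called. Map2k1 was also lost without Mig replicate 1 or 2 or RE replicate 2 (0.27 to 0.38, adjusted p up to 0.114). The JNK1 gene Mapk8 was lower (-0.39, limma adjusted p = 0.00819). In RE+GM against Mig+GM cells Map2k1 (0.35) and the ERK-activated kinase gene Rps6ka3 (0.48, limma adjusted p = 0.0219) were higher and Mapk8 (-0.47) and Srf (-0.82, SE 0.18, limma adjusted p = 0.00258) lower, SRF being the factor that binds the CArG box. Leaving out Mig+GM replicate 2 or 3 or RE+GM replicate 1 ended the calls of Map2k1 and Rps6ka3 there (0.28 to 0.48, adjusted p up to 0.118), and RE+GM replicate 3 that of Map2k1 as well (0.34, adjusted p = 0.0827). The EGR corepressor genes were not called, Nab1 at -0.01 and 0.31 (limma adjusted p = 0.966 and 0.0815) and Nab2 at -0.09 and 0.02 (limma adjusted p = 0.434 and 0.878), without and with GM-CSF. Between Mig+GM and Mig and between RE+GM and RE 0 of the 13 were called. With the block 4 rather than 2 were higher in RE+GM against Mig+GM, and 2 were lower. Without the block 18.9% of all units were higher there and 23.5% lower.

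Genes described elsewhere as AP-1 targets code for chemokines, proteases and other effectors. Backgrounds of units called higher were 17.7% in RE against Mig, 18.9% in RE+GM against Mig+GM and 1.9% in RE+GM against RE. Those called lower were 20.3%, 23.5% and 0.366%. Of 13 tested, 6 were higher, 1 lower and 6 not called in RE against Mig cells, with a median of 0.53. The monocyte chemokine gene Ccl2 (5.07, SE 0.28, limma adjusted p = 1.45e-07), the collagenase gene Mmp13 (2.26, SE 0.38), Hmox1 (0.82) and Il6 (1.29) had the smallest p of the higher ones (Ccl2 was above background on 1 of 3 Mig arrays and Mmp13 on 2 of 3), and Cd44, named after its values were seen, was the lower one (-0.63, limma adjusted p = 0.0252). The Il6 call was lost under median scaling (0.96, adjusted p = 0.134), without Mig replicate 1, RE replicate 2 or RE replicate 3 (0.90 to 1.28, adjusted p up to 0.0997), and without all arrays numbered 2 or 3 (adjusted p up to 0.162). Between RE+GM and Mig+GM cells 10 were higher, 0 lower and 3 not called, with a median of 1.27, and with the block 2 were lower. Ccl2 (6.16), Mmp13 (5.58), the urokinase gene Plau (1.95) and Timp1 (1.08) had the smallest p there, and of the 3 Mig+GM arrays Ccl2 was above background on 1 and Timp1 on 2. In RE+GM against RE cells 6 of the 13 were higher and 0 lower, with Mmp13 at 2.87, Plaur at 2.22, Plau at 1.5 and Mmp10 at 1.35 (limma adjusted p = 0.00265 to 0.00604; Mmp10 was above background on 2 of 3 RE arrays), while between Mig+GM and Mig cells 0 were called. Without all arrays numbered 2 the calls of these 4 in RE cells were lost (adjusted p = 0.184 to 0.303), that of Plau also without those numbered 1 (adjusted p = 0.1) and that of Mmp10 without those numbered 3 (adjusted p = 0.0555). Of the 5 monocyte and macrophage markers 3 were called higher in RE against Mig and 2 in RE+GM against Mig+GM. In RE+GM against RE 0 were called, and with the block 0 were higher and 1 lower. The part of such cells was not tested.

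Heat shock and handling stress genes were counted in the same way, since immediate-early genes also respond to handling. In RE against Mig cells 2 of 10 were higher (Hspb1 0.88, above background on 1 of 3 Mig arrays, and Bag3 0.68), 2 lower (Hspd1 -1.09 and Hspe1 -0.86) and 6 not called, and in RE+GM against Mig+GM cells 2 were higher (Hspb1 0.98, and Hspa1a at least 1.55-fold, as it was above background on no Mig+GM array) and 2 lower (Hspd1 -1.48 and Hspe1 -1.0). Those shares are near the background of calls in either direction, and whether handling had a part in the results was not tested. Between Mig+GM and Mig and between RE+GM and RE 0 of the 10 were called, and 2 in RE+GM against RE with the block. Under median scaling Bag3 was at 0.26 and not called (adjusted p = 0.359).

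**Figure D4:**
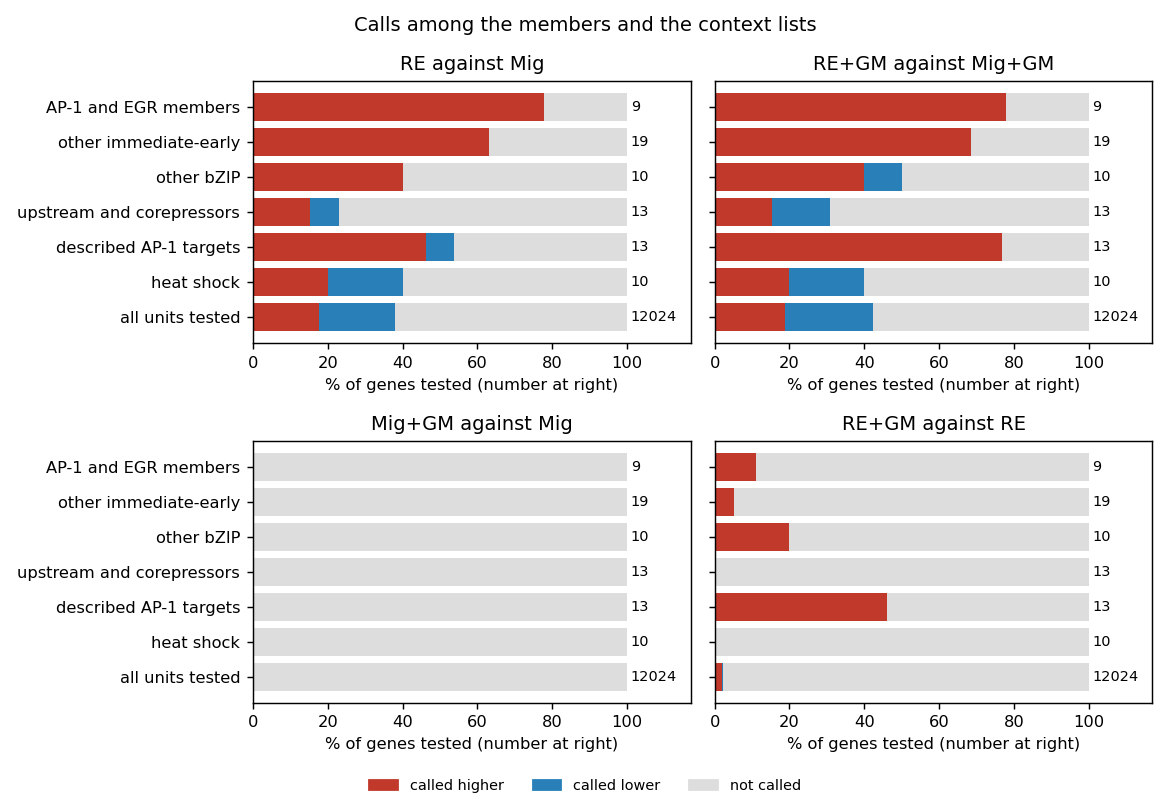
Share of the tested genes of each list called higher, called lower or not called by limma (adjusted p under 0.05) in the 4 comparisons, with all 12024 units as the bottom bar and the number tested at the right. The AP-1 and EGR genes and the other immediate-early genes have a larger higher share in the RUNX1-ETO comparisons than all units do. Calls with GM-CSF are few among all units and in all lists but the described AP-1 targets in RE cells. The genes and lists were chosen with earlier results of these data known, which may raise such shares.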

How the data were processed

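Expression was measured on Illumina Mouse Ref-8 v2.0 BeadChips, 12 arrays in 4 groups of 3, grouped by the labels. The deposited raw table holds 1 intensity per probe and array, not normalized and without a detection p-value. The authors' normalized intensity table, made by a method that the labels do not state, served as an alternative. In limma 3.58.1 (R 4.3.3) intensities were corrected with normexp (offset 50), quantile normalized and taken to log2. Probes were named by GEO's platform annotation (23978 with 1 gene, 0 with several, 1719 unlisted). Kept were 16255 probes above background (p under 0.05 against the lower flank of each array's own signals) on at least 3 arrays. The brightest probe stood for a gene, giving 12024 units, 11050 of them genes and 974 unnamed probes. A group-means model over all arrays with eBayes gave 5 contrasts, with Benjamini-Hochberg adjustment over all units at 0.05. The number of columns left unused was 0. The procedure was tested on simulated data.

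The genes and all lists were chosen with earlier results of these data known. All 9 genes with a probe are described, called context genes were named up to the 4 with the smallest p per list and comparison, with Nab1, Nab2 and Fosl1 added, and the 2 units with the highest Pearson r were named for each gene. Kit, Csf1r and Cd68 were not analysed here. Replicate numbers come from the labels. Deviations from group means correlated between arrays of the same number in every pair (0.121 to 0.47 for RE with Mig, 0.217 to 0.431 for RE+GM with Mig+GM, 0.613 to 0.691 for Mig+GM with Mig, 0.159 to 0.333 for RE+GM with RE), so the number was also fitted as a block. Other alternatives were scaling, offset, background correction, filter, probe choice, weights, trend and leaving out arrays. Promoter sequences are RefSeq's (GRCm38.p6).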

Additional observations from a re-analysis of the deposited data

Results flagged for a closer look

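The gene Mmp13, which encodes a collagenase described elsewhere as an AP-1 target, was the 1 gene of the context lists whose RUNX1-ETO change differed with GM-CSF by the test of the difference itself. The interaction was 3.31 on the log2 scale (SE 0.54, limma adjusted p = 0.0407). Mmp13 averaged 11.98 ± 0.41 in RE+GM and 9.11 ± 0.64 in RE cells, against 6.40 ± 0.20 in Mig+GM and 6.85 ± 0.78 in Mig cells (log2 intensity, SD, n = 3 each), and it was above background on 2 of 3 Mig arrays and on all arrays of the other groups. The difference kept its sign in 26 of 26 alternatives, at 2.88 to 3.71, and its call was lost in 15 of them, with adjusted p from 0.00978 to 0.985, the highest without all arrays numbered 2. No AP-1 or EGR gene met the same test.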

How the results depend on the processing

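Fos, Jun and Junb in RE against Mig, and Fos, Fosb, Junb and Ier3 in RE+GM against Mig+GM, were called in all 26 alternatives. Scaling arrays to 1 median left 4 of 9 called higher in RE against Mig, without Jund, Egr1 and Ier3, and the count was 4 to 7 on leaving out arrays. It also moved the split of all calls there to 1234 higher and 3459 lower, against 2128 and 2442, and the median of all units from -0.04 to -0.11, and for the interaction from -0.03 to 0.15. In RE+GM against RE the count of 1 was 2 with array weights, with a mean-intensity trend and with the replicate block, each adding Egr2, and 0 to 2 on leaving out arrays. The block changed no other call of the 9 genes. Units called there were 228 higher and 44 lower, against 194 and 5 under median scaling, 279 and 137 with the authors' table, 546 and 460 with weights and 407 and 296 with the block. For the interaction they were 32 and 0, against 12 and 0 under median scaling, 18 and 0 with an offset of 16, 34 and 6 with the authors' table, 88 and 11 with weights, 55 and 3 with the trend and 63 and 11 with the block. Without all arrays numbered 2 the units called were 10 higher and 0 lower in RE+GM against RE and 0 in the interaction, and without RE replicate 3 they were 499 and 412, and 146 and 36. Signs turned for 12 differences of the 9 genes, none of them called, and for Map2k2. Under median scaling, with or without the block, Egr2 was at -0.0069 in Mig+GM against Mig, Fosb at 0.0901 and Junb at 0.23 in RE+GM against RE, and Egr1 at 0.41 and Egr3 at 0.0635 in the interaction, while the called Map2k2 was at -0.0536 in RE against Mig. Array weights gave 0.0641 for Fos in Mig+GM against Mig, 0.34 for Fosb and 0.10 for Junb in RE+GM against RE, and 0.0178 for Egr1 and 0.0225 for Egr3 in the interaction. The authors' table gave 0.0066 for Fosb in RE+GM against RE and 0.0199 for Egr3 in the interaction, and an offset of 16 gave 0.0166 for Fos in Mig+GM against Mig. On leaving out arrays, Egr2 ran from -0.0811 to 0.29 in RE against Mig. In Mig+GM against Mig, Fos ran from -0.76 to 0.64, Egr1 from -0.21 to 1.34 and Egr2 from -0.12 to 0.27. In RE+GM against RE, Fosb ran from -0.48 to 0.31, Jun from -0.31 to 0.37, Junb from -0.22 to 0.11 and Jund from -0.0260 to 0.14. In the interaction, Fos ran from -0.0676 to 1.33, Fosb from -0.33 to 0.55, Egr1 from -0.91 to 0.65 and Egr3 from -0.0978 to 0.0422. The cause was not tested. Leaving out all arrays of 1 number, and median scaling with the block, were chosen after seeing the data. Dim probes such as Fosb, Jund, Egr2 and Egr3 lie near background, which limits their changes.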
